A study of Mus musculus with 6 samples.

Results

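The locus of Pou5f1, the gene of the transcription factor OCT4, was examined in 6 lists of ATAC-seq peaks from mouse embryonic stem cells. ATAC-seq marks accessible DNA by where the Tn5 transposase inserts sequencing adapters. The members were all peaks that overlapped, by at least 1 bp, the gene and 50 kb either side of it on chromosome 17 (mm10, 35456032 to 35560777). There were 33 such peaks out of 180047 in the 6 lists. Mito replicates 1 and 2 held 6 and 7 of them, those of LM 3 and 4, and those of eG1-1 4 and 9, and pairs of values are given in that order throughout.

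All groups used the CGR8 line, which the series text describes as Cdt1-MD. The cells were left untreated and grown in an N2 and B27 medium with a GSK3 inhibitor (CHIR99021), a MEK inhibitor (PD184352) and leukemia inhibitory factor. The groups mito, LM and eG1-1 had 2 lists each. Their names are not spelled out in the labels, and the peak names of the LM lists read Telo; with mitotic exit named in the series title, they were taken to stand for mitosis, its late phase and early G1. Whether the replicates were separate cultures is not stated, so each p-value reflects the spread between lists alone, and that spread could be technical. The series title asks how the genome of pluripotent cells becomes active again on leaving mitosis.

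OCT4 is a POU-domain transcription factor that embryonic stem cells need to stay pluripotent, and it binds DNA together with SOX2. The mouse gene is read from a promoter without a TATA box and is controlled by a proximal and a distal enhancer within the few kilobases upstream. The distal enhancer is the more active in naive embryonic stem cells, the proximal one in the primed state of the epiblast, and the distal element itself carries a joint site for OCT4 and SOX2. The annotated gene runs from 35506032 to 35510777 on the plus strand. A long noncoding RNA gene of unknown role, Gm32362, runs the other way and starts 295 bp upstream of Pou5f1, so that its body lies over the enhancers. Downstream lie Tcf19, a gene tied to the cell cycle, and Cchcr1, which encodes a coiled-coil protein, whose starts face away from each other 212 bp apart, and then Psors1c2 and Cdsn, the gene of the skin protein corneodesmosin. H2-Q10, a class I histocompatibility gene, lies upstream.

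The DNA between the paired starts of both divergent gene pairs is shown because the lists treated these stretches in opposite ways. The first, chr17:35505738-35506031, is the 294 bp between the starts of Gm32362 and Pou5f1. The second, chr17:35516838-35517048, is the 211 bp between the starts of Tcf19 and Cchcr1. Both are printed 5′ to 3′ on the plus strand, from RefSeq promoter entries on GRCm38.p6, the assembly of mm10. Capitals mark matches, on either strand, to the GC box GGGCGG, the nuclear receptor motif AGGTCA or the CCAAT box (CCAAT, read as ATTGG on the other strand).
Gm32362 to Pou5f1: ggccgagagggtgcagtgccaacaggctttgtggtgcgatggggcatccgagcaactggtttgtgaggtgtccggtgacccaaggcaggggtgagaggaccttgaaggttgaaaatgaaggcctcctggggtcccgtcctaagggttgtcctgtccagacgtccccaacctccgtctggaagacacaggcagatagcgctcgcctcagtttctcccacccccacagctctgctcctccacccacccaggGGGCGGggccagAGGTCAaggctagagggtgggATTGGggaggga
Tcf19 to Cchcr1: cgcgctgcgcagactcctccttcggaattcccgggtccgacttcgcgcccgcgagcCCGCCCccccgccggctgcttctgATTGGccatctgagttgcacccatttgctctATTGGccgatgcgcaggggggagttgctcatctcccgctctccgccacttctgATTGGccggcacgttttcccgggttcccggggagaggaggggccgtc

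No list held a peak over any of the 294 bp before Pou5f1. Each list held a peak between Tcf19 and Cchcr1, which covered all 211 bp in 4 lists, 205 bp for mito replicate 2 and 178 bp for LM replicate 2. The Pou5f1 stretch held 1 GC box, 40 to 45 bp upstream of the start, 1 AGGTCA, 28 to 33 bp upstream, and 1 CCAAT match on the minus strand, 8 to 12 bp upstream. The Tcf19 stretch held 1 GC box and 3 CCAAT matches. Neither held the octamer ATGCAAAT, to which POU factors bind, or the TATA box TATAAA. Among 32851 promoter entries of 300 bases in the table, 35.7% held the GC box, 16.3% AGGTCA, 37.4% CCAAT, 1.74% the octamer and 13.6% the TATA box. The Pou5f1 stretch had 10 CG dinucleotides and a GC content of 62.6%, and the shorter Tcf19 stretch 22 and 67.3%. A match to these letters describes the sequence and does not show that a factor was bound.

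Upstream of Pou5f1, 8 of 9 peaks touched an enhancer band, the other lay just before the start, and none reached the start itself. The bands were set from the textbook layout of the locus, since the gene tables do not annotate enhancers: 500 bp either side of the start, a proximal enhancer band 800 to 1500 bp upstream and a distal enhancer band 1500 to 2500 bp upstream. The lists held 9 peaks in the 5 kb upstream of the gene, in 5 of the 6 lists, and all 9 had their centre inside Gm32362. No list had a peak in the body of Pou5f1.

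In the proximal enhancer region the mito lists scored 48 and 75. The score is the authors' whole-number value for each peak, which starts at 13 in every list and is read here within its own list. Mito replicate 1 held its peak from 1193 to 557 bp upstream of the start, and mito replicate 2 from 1408 to 674 bp. LM replicate 1 scored 49 there, with a peak from 1089 to 776 bp, and LM replicate 2 had none. In eG1-1, replicate 1 had none and replicate 2 scored 43, from 1156 to 897 bp. These 4 peaks shared 193 bp, from 1089 to 897 bp upstream, the one stretch near the gene that 4 lists held. Both mito lists, and 1 list each of LM and eG1-1, thus had a proximal enhancer peak.

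In the distal enhancer region the mito lists scored 38 and 44, but the peaks did not overlap. Mito replicate 1 held 1685 to 1431 bp upstream, across the border to the proximal band, and mito replicate 2 held 2165 to 1772 bp. LM replicate 1 had the highest score of the 9 upstream peaks, 98, over 2049 to 1423 bp, and so met both mito peaks. In eG1-1, replicate 1 scored 19 from 2283 to 1931 bp, near the lowest score of its list, and replicate 2 had none. LM replicate 2 again had none. Each eG1-1 list therefore had a peak in either the distal or the proximal band and not in both, while 3 of the 4 earlier lists had both. The mito replicate 1 peak covered only 18.6% of the distal band, and it met neither the mito replicate 2 nor the eG1-1 replicate 1 peak. These counts thus depend on where the band borders were set, and the share of all genes with this pattern is not given here.

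**Figure D1:**
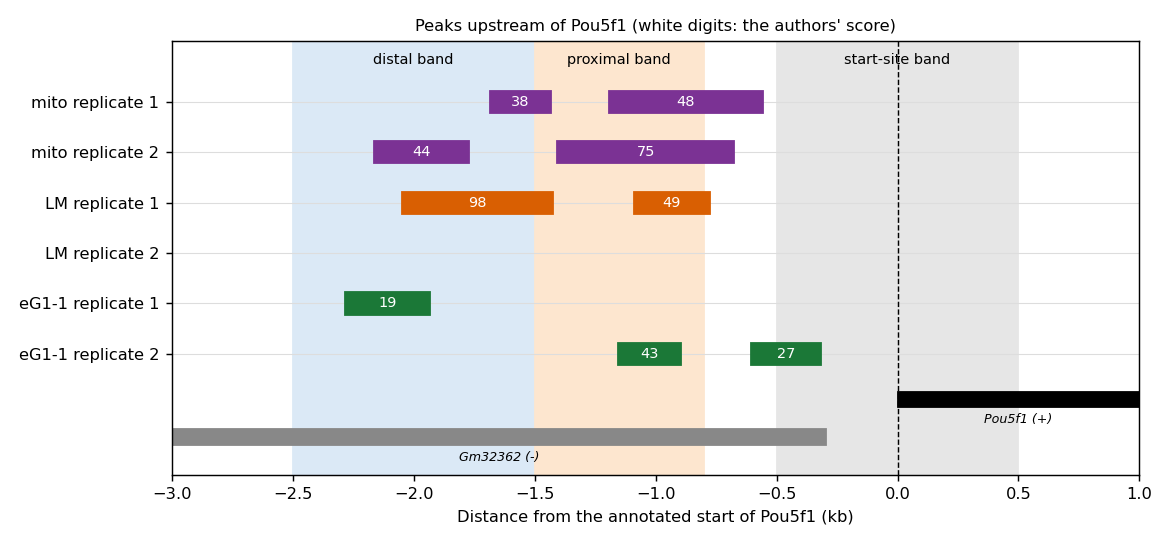
Peaks upstream of Pou5f1 in each list, drawn to scale against distance from the annotated start in kb, with the authors' score in each peak and the 3 bands shaded. Both mito lists and LM replicate 1 have a peak in each of the proximal and distal bands, LM replicate 2 is empty, and the peak nearest to the start, in eG1-1 replicate 2, ends 317 bp before it.

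The start itself carried no peak in any list. The nearest was in eG1-1 replicate 2, with a score of 27, from 604 to 317 bp upstream, which ended 22 bp short of the start of Gm32362. This was the 1 list with a peak in the start-site band, of which it covered 18.4%. Of 17492 protein-coding genes with a known strand, 57.2% had no peak over the start base in any list and 15.3% had one in all 6. Pou5f1 was also 1 of 584 genes, 3.34%, whose start base was bare in all lists while both mito lists had a peak 500 to 2500 bp upstream. Over all genes, a peak at the distance of the proximal band was held by both mito lists at 2.96% of genes, and one at the distance of the distal band at 1.60%. Pou5f1 was among both. List by list, 4.22% and 5.55% of genes had a peak in the proximal band for mito, 3.67% and 2.18% for LM, and 3.17% and 5.61% for eG1-1. The same shares for the distal band were 2.06% and 2.75%, 1.64% and 1.42%, and 2.28% and 3.65%.

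Within their lists, 7 of the 9 upstream peaks of Pou5f1 scored below the middle of the list. The share of the list's peaks with a lower score was 27.2% and 42.6% for the 2 peaks of mito replicate 1 and 31.1% and 61.8% for those of mito replicate 2. It was 79.3% and 44.2% for the distal and proximal peaks of LM replicate 1. In eG1-1 it was 2.95% for replicate 1, and 35.3% and 10.3% for replicate 2. The range over the 9 peaks was thus 2.95% to 79.3%, with a median of 35.3%. The peak at Tcf19 and Cchcr1, 11 kb downstream, ranked higher than every upstream peak of its own list. Lists of different length give ranks that cannot be compared between stages, so these values order the sites within a list only.

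Taking 1 kb either side of the annotated start as the mark of a gene's own start, Pou5f1 had a peak in 4 lists: both of mito, LM replicate 1 and eG1-1 replicate 2. The lists without one, LM replicate 2 and eG1-1 replicate 1, were also those with the fewest protein-coding gene starts, 34.1% and 40.0% against 44.9% to 50.1% in the other 4. The part of this in the Pou5f1 result was not tested. Over 21887 protein-coding genes, 2.55% had peaks in exactly the same lists, 26.4% in all 6 lists, 2.03% in both mito lists and no eG1-1 list, and 2.12% in both mito lists and no LM list. Pou5f1 belonged to neither of the last groups, since each later stage had 1 list with a peak.

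The following 5 genes had the pattern most like that of Pou5f1, by Euclidean distance over the 6 within-list percentiles of the highest peak within 1 kb of the start. They were Cdk9, the kinase of the elongation factor P-TEFb, at a distance of 7.42 percentile points, Tent4a (8.49), a poly(A) polymerase, Mta3 (9.22), a subunit of the NuRD complex, Clip1 (9.70), a microtubule plus-end protein, and Dock1 (10.1), an activator of Rac. Each had peaks in the same 4 lists as Pou5f1 and in neither of the others. Cdk9 scored 54 and 78 in mito, 46 in LM replicate 1 and 44 in eG1-1 replicate 2, against 48, 75, 49 and 43 at Pou5f1. Mta3 was read at either end, because its strand is not in the table used. There were 558 other genes with peaks in the same 4 lists.

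Across the 104746 bp of the window, the 33 peaks merged into 11 regions, and 1 region was held by all 6 lists. This was the start of Tcf19 and Cchcr1, with scores of 96 and 89 for mito, 160 and 86 for LM, and 111 and 190 for eG1-1. It was the highest peak of the window in 5 lists. In eG1-1 replicate 1 it came second to a site 15 kb upstream. Over all 65324 regions of the genome, 15.5% were held by all 6 lists.

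The site 15 kb upstream of Pou5f1, chr17:35490264-35490998, lies between H2-Q10 and Gm32362 with no annotated gene end within 1 kb. Its scores were 58 and 75 in mito, none in LM replicate 1 and 42 in LM replicate 2, and 120 and 82 in eG1-1. It was thus in 5 of 6 lists, including the list that had no peak near Pou5f1 itself. Its share of list peaks with a lower score ran from 42.6% to 88.6%. LM replicate 1, which lacked it, was the list with the highest distal enhancer score.

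Between Psors1c2 and Cdsn, 34 kb downstream, another site without a gene end nearby, chr17:35539372-35539822, was held by the same 5 lists. It scored 18 and 23 in mito, 33 in LM replicate 2 and 59 and 60 in eG1-1. In the mito lists these scores stood above only 1.04% and 4.05% of the peaks, and in eG1-1 above 60.3% and 52.9%. The order of sites therefore differed within lists: in mito this site scored below every enhancer peak of Pou5f1, and in eG1-1 above every one. That difference was seen after the values were known and was not tested.

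The start of Cdsn was held by both mito lists, with scores of 45 and 59, by neither LM list, and by eG1-1 replicate 2 with 28. It was the 1 window region held in both mito lists and no LM list, a pattern of 3.56% of regions in the genome. In 1 list only were 5 of the 11 regions, against 42.4% over the genome. They were a site near the start of H2-Q10 in mito replicate 2 (28), a site inside Cchcr1 in LM replicate 2 (26), and in eG1-1 replicate 2 a site at −40.4 kb from the start (34), another inside Cchcr1 (37) and the end of Psors1c2 (57). The larger part of these, 3 of 5, came from eG1-1 replicate 2, the longest list, with 48396 peaks. The same share over the genome is not given here, and the part of list length was not tested.

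None of the 11 regions was held in both lists of 1 stage and neither list of another, apart from the Cdsn start. The counts were 0 for both mito and no eG1-1 (1.85% over the genome) and 0 for both eG1-1 and no mito (8.07%). They were also 0 for both LM and no mito (0.905%), both LM and no eG1-1 (0.459%) and both eG1-1 and no LM (9.38%). With 11 regions, such counts can say little. When each list was reduced to its 20639 highest scores, the length of the shortest, 22 of the 33 window peaks and 7 regions remained. Then 3 regions were in both mito lists and no eG1-1 list, against 5.80% over the genome: the distal and proximal enhancer regions of Pou5f1 and the start of Cdsn. The distal region counted as in both mito lists only because the LM replicate 1 peak joined their peaks, which share no base. Reducing the lists removed all 3 upstream peaks of the eG1-1 lists and none of the 6 in mito and LM replicate 1. It takes the most peaks from the longest lists, which were those of eG1-1, so this count does not show a loss with stage.

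**Figure D2:**
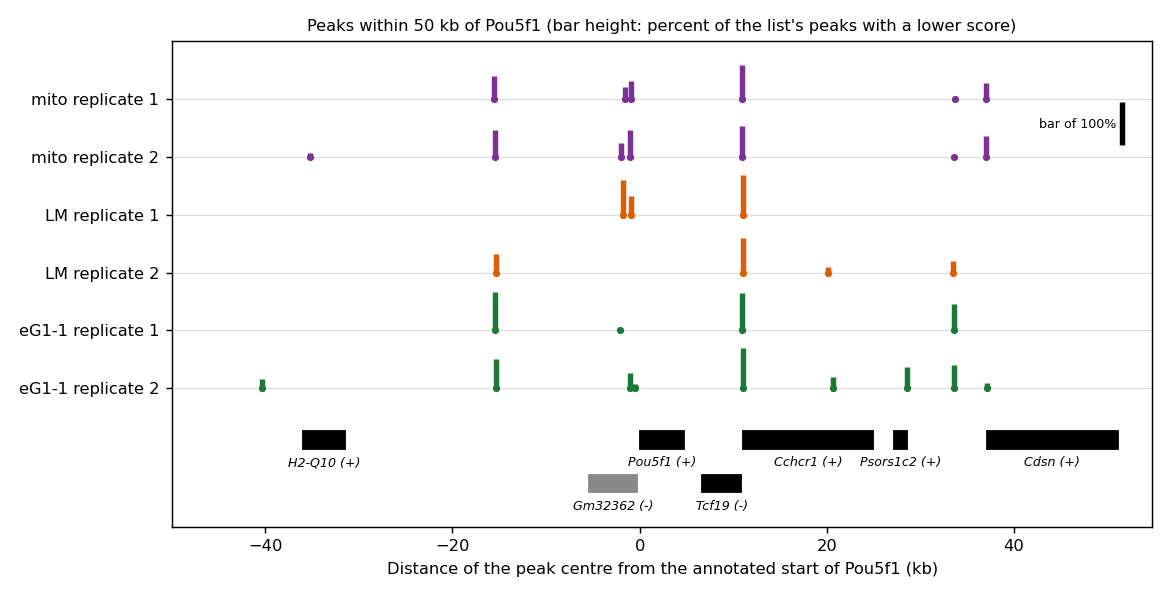
Peaks of the 6 lists against distance from the start of Pou5f1 in kb, with genes below (black, protein-coding; grey, noncoding; strand in brackets). Bar height is the percent of the list's own peaks with a lower score, and a peak at 11 kb, between Tcf19 and Cchcr1, stands in all 6 lists.

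The number of peaks in the window did not follow the order of the stages. The mean was 6.5 ± 0.707 peaks for mito, 3.5 ± 0.707 for LM and 6.5 ± 3.54 for eG1-1 (SD, n = 2 each). Both LM lists lay at or below every other list, with 3 and 4 peaks, but eG1-1 replicate 1 also had 4. The LM lists were also the 2 shortest, with 23867 and 20639 peaks, and the part of list length in these counts was not tested. The slope over mito, LM and eG1-1 was 0 peaks per step (exact permutation p = 1.00, two-sided, over 90 assignments, of which the smallest possible p is 0.0222). Since LM lies in the middle, its lists carry no weight in that slope, which sets mito against eG1-1. Any exact test of LM against another stage compares 2 lists with 2, and its smallest p is 0.333.

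The covered length in the window was 2129 and 3376 bp for mito, 1362 and 1175 bp for LM, and 1194 and 3538 bp for eG1-1. The groups of mito and LM did not overlap, and the eG1-1 lists had the second lowest and the highest value of the 6. The slope was −193 bp per step (exact permutation p = 0.822). It became 258 bp without mito replicate 2 and 125 bp without eG1-1 replicate 1, so its direction rests on single lists.

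As a share of the list, the window held 0.244 and 0.230 peaks per 1000 for mito, 0.126 and 0.194 for LM, and 0.125 and 0.186 for eG1-1. Both mito lists lay above all 4 others. The slope was −0.0408 peaks per 1000 per step and missed the threshold (exact permutation p = 0.133, adjusted over the 4 trends 0.489). It shrank to −0.00654 with scores of at least 50 (exact permutation p = 0.733) and to −0.0191 with 25 kb either side (p = 0.0889). The lists that form the denominator had 24598 and 30446 peaks for mito, 23867 and 20639 for LM, and 32101 and 48396 for eG1-1. The part of list length in the share was not tested.

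The stretch from 5 kb upstream of Pou5f1 to its end was covered over 892 and 1129 bp for mito, 941 and 0 bp for LM, and 353 and 548 bp for eG1-1. Both mito lists lay above both eG1-1 lists, and LM replicate 1 lay among the mito lists. The slope was −280 bp per step and missed the threshold (exact permutation p = 0.244, adjusted over the 4 trends 0.489). The 2 mito lists shared 520 bp of this stretch, of 1501 bp that either covered. The 2 LM lists shared 0 of 941 bp, and the 2 eG1-1 lists shared 0 of 901 bp. The LM value of 0 follows from LM replicate 2 having no peak in this stretch, and the sharing between replicates was not compared between stages.

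With lists of equal length the exact permutation p was 0.0444 for the number of peaks, 0.0222 for covered length and 0.0444 for the share. These slopes were negative (adjusted p 0.0593 each), as was that of the gene-proximal length (exact permutation p = 0.133, slope −505 bp). At equal length the share is the number of peaks divided by a constant, so both are the same test and not separate results. No trend passed after adjustment over the 4 trends, which counted that test under both names. The depth behind each list is unknown, since the lists hold no read counts. Where a list has no peak, the caller reported none, which is not a measure of closed DNA.

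**Figure D3:**
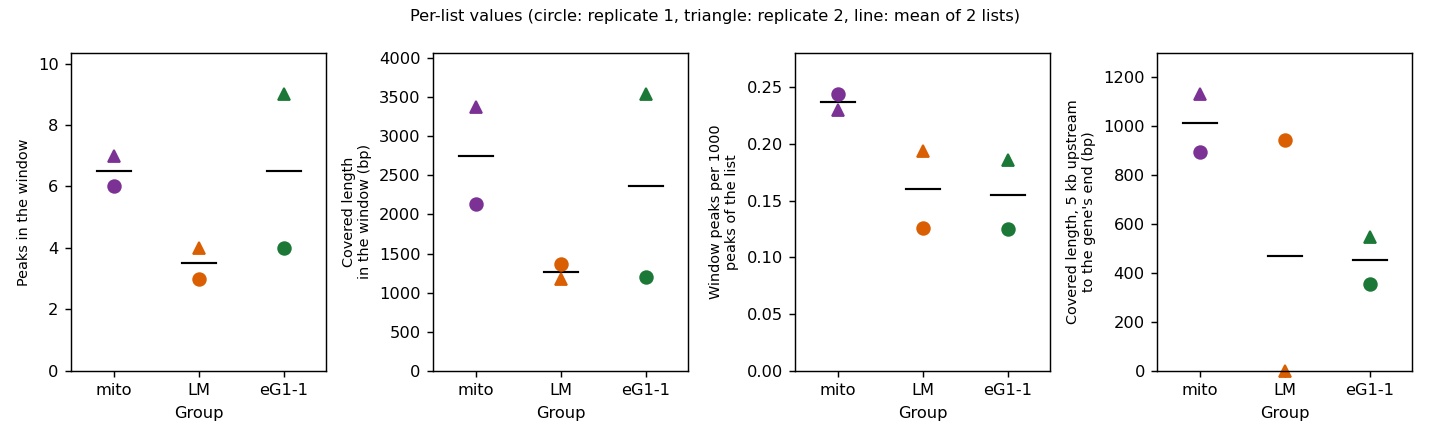
The 4 values tested for a trend, in each list (circles, replicate 1; triangles, replicate 2; lines, means of 2 lists). Mito lies above eG1-1 in both lists for the share and the gene-proximal length, and the eG1-1 lists span from 4 to 9 peaks.

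Set against the genome, the Pou5f1 window held more peaks than the median gene window in every list. In LM replicate 1 and eG1-1 replicate 1 it stood near the middle. It held more peaks than the windows of 83.7% and 82.8% of protein-coding genes for mito, 51.8% and 72.8% for LM, and 55.1% and 81.2% for eG1-1. The median gene had 2 and 3 peaks in mito, 2 in both LM lists, and 3 and 5 in eG1-1. Gene windows overlap one another and differ in gene number, so this is a description.

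The same window around Nanog, another core pluripotency gene, held 7 and 6 peaks for mito, 3 and 1 for LM, and 3 and 6 for eG1-1. Around Sox2, the gene of the partner of OCT4, there were 5 and 4, 0 and 2, and 1 and 3 peaks. In the Pou5f1 window there were thus 3.00 ± 1.67 more peaks than in the Sox2 window (SD, n = 6 lists), with more in 6 of 6 lists. That difference had the smallest p the exact sign-flip permutation test can give, 0.0312, and 0.0625 when adjusted over both comparisons, so that it did not pass. It was 1.33 peaks with 25 kb either side (exact permutation p = 0.188) and 1.83 with scores of at least 50 (p = 0.0312, adjusted 0.0625). Against Nanog the difference was 1.17 ± 1.60 peaks (exact permutation p = 0.250), with more at Pou5f1 in 4 lists, fewer in 1 and as many in 1. The Pou5f1 window overlaps 6 protein-coding genes, the Nanog window 2 and the Sox2 window 1, and the share of this in the difference was not tested. With 100 kb either side the difference from Nanog became −3.0 peaks.

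**Figure D4:**
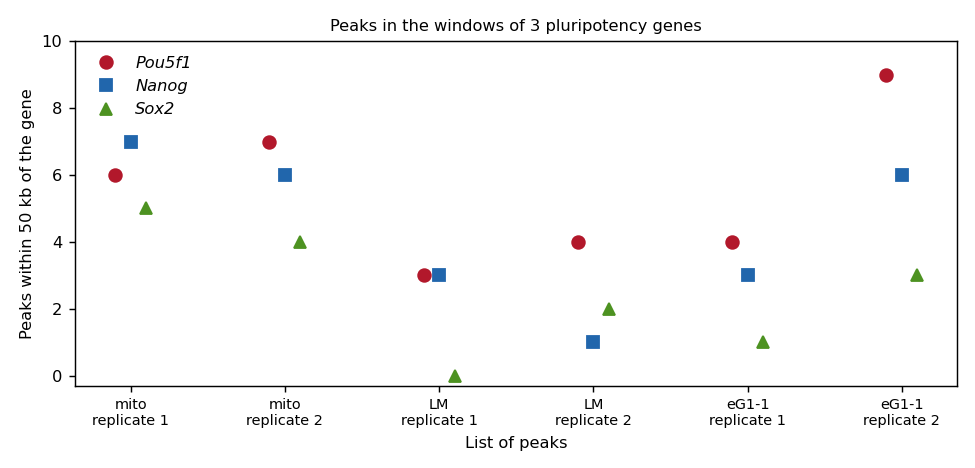
Number of peaks within 50 kb of Pou5f1, Nanog and Sox2 in each list. Sox2 lies below Pou5f1 in all 6 lists, and Nanog lies above Pou5f1 in mito replicate 1 and level with it in LM replicate 1. For each gene the mean of the 2 LM lists is below the means of mito and eG1-1. The LM lists are also the 2 shortest of the 6, and the part of list length was not tested.

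The label of embryonic stem cells was checked at the gene starts. Of 10 genes that mark naive embryonic stem cells, Zfp42 (127 to 340 over the lists) and Tbx3 (70 to 260) had a start peak in all 6 lists. Klf2 and Tfcp2l1 had one in 5 lists and Pou5f1 and Klf4 in 4. Sox2 had one in 2, Nanog in 1, and Esrrb and Dppa3 in none. Tbx3 and Dppa3 were read at either end. Over all protein-coding genes, the share with a start peak was 44.9% and 48.6% for mito, 45.8% and 34.1% for LM, and 40.0% and 50.1% for eG1-1. Of the 10 naive markers, the share was 70% and 60% for mito, 60% and 50% for LM, and 20% and 70% for eG1-1, so that eG1-1 replicate 1 alone lay below its share over all genes. Of 6 markers of primed or differentiated cells, 5 had a start peak in no list, and Sox1, a neural gene, had one in 5. Over all protein-coding genes, 9011 of 21887 had a start peak in no list. The share of the primed markers was 0% and 16.7% for mito, and 16.7% in each list of LM and eG1-1. Of 6 fibroblast markers, Col1a1 (53 to 122), read at either end, had one in all 6 lists, Thy1 in 5 and Col3a1 in none. Thy1 and Pdgfrb were also read at either end. Mito held 1 and 3 of the 6 (16.7% and 50%), LM 3 and 2 (50% and 33.3%), and eG1-1 3 and 5 (50% and 83.3%). That was within 5 percentage points of the share over all genes in mito replicate 2 and both LM lists, below it in mito replicate 1 and above it in both eG1-1 lists. Their part in the Pou5f1 result was not tested. Peaks at starts do not measure expression, and a start peak is missing at several genes these cells are known to use.

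Factors known to bind the regulatory DNA of Pou5f1 were read in the same way. Of 20 such genes, the lists held a start peak at 12 and 11 for mito (60% and 55%), 11 and 9 for LM (55% and 45%), and 7 and 11 for eG1-1 (35% and 55%). Those shares stand beside 44.9% and 48.6%, 45.8% and 34.1%, and 40.0% and 50.1% over all genes. The median gene of this group had a start peak in 3 lists, against 2 over all protein-coding genes. A start peak in all 6 lists was found at 6 of the 20, against 26.4% of all genes: Sp1, Klf5, Stat3, Zfp143, Tcf7l1 and Nr6a1. Klf5 was read at either end. Sp1, whose product binds the GC box, had the highest score of the 20 in every list but LM replicate 2, where Stat3 (178) and Zfp143 (169) were higher. Its scores were 373 and 337 for mito, 442 and 154 for LM, and 286 and 508 for eG1-1. Tcf7l1, a repressor at the end of the Wnt pathway, scored 72 and 119, 90 and 53, and 40 and 48. Nr6a1, the germ cell nuclear factor that silences Pou5f1 on differentiation, scored 127 and 70, 99 and 33, and 46 and 93.

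Klf4 and Sp3 had start peaks in the same 4 lists as Pou5f1. Klf4, a reprogramming factor, scored 24 and 58 in mito, 55 in LM replicate 1 and 40 in eG1-1 replicate 2. Sp3, a relative of Sp1, scored 54, 61, 84 and 91 in those lists. Sall4, a zinc finger factor of the pluripotency network, was the 1 gene of the 20 with a start peak in mito alone, in both lists (34 and 61); its strand is not in the table and both ends were read. No list had a start peak at 5 of the 20, which were Esrrb and Nr5a2, activators of Pou5f1, Nr2f1 and Nr2f2, its repressors, and Foxd3, a forkhead factor. Over all protein-coding genes, 9011 of 21887 had none.

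Among the 15 genes of the POU family, Pou5f1 had a start peak in more lists than 10 other members and in fewer than 3. Pou2f1, the widely expressed OCT1 gene, was the 1 member with a start peak in all 6 lists (94 and 244, 105 and 76, 97 and 131). Pou3f2 and Pou4f2, which act in neural cells, had one in 5. Pou3f3, also neural, had one in 4, as Pou5f1 did, but in other lists: 54 and 29 for mito, none for LM, and 22 and 141 for eG1-1. Pou5f2 had one in LM replicate 2 (44) and eG1-1 replicate 2 (57). No list had one at Pou1f1, Pou2f2, Pou2f3 or Pou4f3, of which Pou2f3 and Pou4f3 were read at either end. That was 4 of the 15, against 9011 of 21887 over all protein-coding genes. The lists held 6 and 7 of the 15 for mito (40.0% and 46.7%), 6 and 4 for LM (40.0% and 26.7%), and 4 and 8 for eG1-1 (26.7% and 53.3%). In eG1-1 replicate 2 alone was that above the share over all genes, which was 50.1% there. The median member had a start peak in 2 lists, as over all protein-coding genes.

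**Figure D5:**
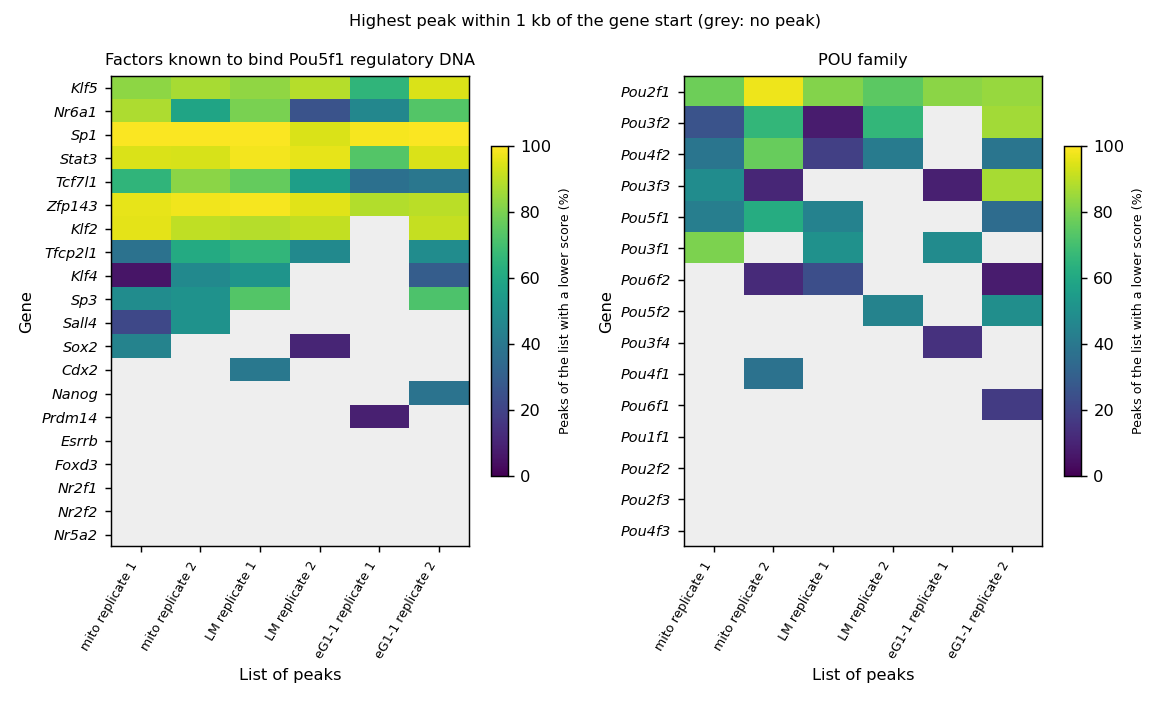
Highest peak within 1 kb of the start of the 20 factors and the 15 POU genes in each list, coloured by the percent of the list's peaks with a lower score (grey, no peak). Sp1, Stat3 and Zfp143 stand high in all lists, and Pou5f1 shares its 4 lists with Klf4 and Sp3.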

How the data were processed

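The 6 samples each had 1 deposited list of peaks with 5 columns. The score in the last column is the authors' own value per peak, of unstated scaling. Per the file headers (the peak names), the authors called peaks in each sample by itself from paired-end fragments. Per the submitters' processing notes, the tools were MACS2 2.2.4, STAR 2.7.0e, SAMtools 1.10, bedtools, deepTools 3.5.1 and Picard, on mm10, with no role given. A caller threshold or Tn5 shift is not given in the sources used here. By name, the peaks place all replicate 1 lists in 1 sequencing directory and all replicate 2 lists in another, so replicate number was used as a block in an alternative. Deviations of same-numbered lists over 65324 regions correlated at 0.0328 (mito and LM), 0.0141 (LM and eG1-1) and 0.0324 (mito and eG1-1). Replicate lists shared 9 to 11 identical intervals, so no list was a copy of another.

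Positions were converted to count from 1. Overlapping peaks (1 bp or more) were merged into regions with Python 3.11.15, numpy 2.4.6 and pandas 2.3.3. Gene positions came from RefSeq tables on GRCm38.p6. The strand was known for 17492 of 21887 protein-coding genes, and for the other 4395 both ends were read. No enhancer sequence was used here. Trends were tested by exact permutation of the slope, and paired window differences by exact sign flips, with Benjamini-Hochberg adjustment over 4 trends and 2 differences. The code was tested on simulated data. Alternatives were a score of at least 50, equal list length, peak centres, other windows, joined peaks and each list left out. Named genes were the genes of the window, the fixed lists and the 5 genes with the smallest distance. The locus, the lists and the bands were chosen with earlier results of these data known.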

Additional observations from a re-analysis of the deposited data

How the results depend on the processing

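Of 68 alternative values of the 4 trends and 2 window differences, 62 were classed as the same, 2 as moved and 4 as reversed. The main slope of the number of peaks was 0, so its alternatives had no direction to keep. With p adjusted within each family, no main or alternative value was under the threshold of 0.05, so the threshold did not separate them. The slope of the number of peaks became −1.25 at equal list length, and ranged from −1.5 (without eG1-1 replicate 2) to 0.643 with 1 list left out. The slope of covered length became 15.2 bp at a score of at least 50 and ranged from −880 to 258 bp with 1 list left out. The difference from Nanog became −3.0 peaks with 100 kb either side. The cause of these changes was not tested, except that equal length removes most peaks from the eG1-1 lists by construction. The difference from Sox2 was 2.4 to 3.4 peaks with 1 list left out, where 5 lists cannot give an exact p under 0.0625, but 1.33 with 25 kb either side, 1.83 at a score of at least 50 and 2.0 at equal list length. That from Nanog was 0.167 at a score of at least 50 and 0.500 at equal list length. The slope of the share was −0.00654 at a score of at least 50 and −0.0191 with 25 kb either side, and that of covered length −4.75 bp with 25 kb, −36.0 bp with 100 kb and −594 bp at equal list length. The gene-proximal slope was −184 bp at a score of at least 50 and −505 bp at equal list length.

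With the replicate block, labels were permuted within each replicate number, over 36 assignments with a smallest p of 0.0556. The share of list peaks reached that p, with the same slope of −0.0408. Since that smallest p lies above the threshold of 0.05, the blocked test could not call any trend. At equal list length no list had a peak in the start-site band of Pou5f1. At a score of at least 50, the regions held in both eG1-1 lists numbered 1 of 7 without a mito peak (8.11% over the genome) and 2 of 7 without an LM peak (10.6%). At equal list length 3 of 7 regions were in both mito lists and no eG1-1 list (5.80%), and 1 of 7 was in 1 list only (35.8%). The distal enhancer region was among the 3 only through the LM replicate 1 peak that joined its mito peaks. With 2 lists a stage and unknown depth, precision is limited in every comparison of stages here.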
